A study of Homo sapiens with 9 samples.

Results

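The factors of translation initiation and elongation were examined in the established human cell line A498, which derives from a clear cell renal cell carcinoma (ccRCC), with either BMAL1 or ARNT depleted. Both are transcription factors of the bHLH-PAS family. Members were all genes of the count table whose symbol begins with EIF or EEF and a digit, without the EIF2AK kinases, and they numbered 62 of 27673 genes. Of these, 60 passed the filter on low counts and were tested among 15551 genes. EIF1AY and EIF4E1B were not tested, and EIF4E1B had 0 counts in all libraries. The names cover 45 initiation factors and their binding proteins, 8 eEF names, 3 eIF5A genes, the exon junction helicase EIF4A3, the readthrough name EEF1E1-MUTED and 2 antisense RNAs, EIF1B-AS1 and EIF3J-AS1.

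The 9 RNA libraries formed 3 groups of 3 biological replicates. Cells of all groups had been infected with lentivirus from a pLKO.1 vector and selected with puromycin, and they carried a control hairpin RNA (shControl), a hairpin against BMAL1 (shBMAL1) or a hairpin against ARNT (shARNT). The genotype is given as wild type throughout, and the labels tell of 1 hairpin name per group, so effects of a hairpin other than on its target cannot be told apart from depletion. The labels do not say whether replicates came from separate infections, so p-values measure the spread between these libraries. The study asked what BMAL1 and ARNT each contribute to expression driven by HIF2α, the hypoxia-inducible factor that is active in ccRCC. HIF2α classically pairs with ARNT, whereas BMAL1 pairs with CLOCK to drive circadian genes. The study reports that BMAL1 can also pair with HIF2α.

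Protein synthesis starts when the cap-binding complex eIF4F (the cap-binding protein eIF4E, the scaffold eIF4G and the helicase eIF4A) recruits the small ribosomal subunit, which carries eIF3, eIF1, eIF1A and the eIF2 complex with the initiator tRNA. eIF2 binds GTP, and eIF2B renews that GTP after each round. eIF5 and eIF5B then act in start codon recognition and subunit joining. In elongation, eEF1A brings aminoacyl-tRNA to the ribosome, the eEF1B complex exchanges the nucleotide on eEF1A, and eEF2 moves the ribosome along the mRNA. The mRNAs of many of these factors begin with a run of pyrimidines, the 5′ terminal oligopyrimidine motif, through which mTOR controls their translation.

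Library totals ranged from 35269870 to 36099096 counts, and TMM factors, which rescale each library for its composition, from 0.932 to 1.11, highest in shARNT. Levels are given as CPM, counts scaled to the TMM-adjusted library total, and differences as log2 fold changes ± SE. The hairpins lowered their targets. ARNT had 48.1, 50.6 and 52.6 CPM in shControl, 33.0, 33.3 and 30.5 in shBMAL1, and 9.32, 9.13 and 9.95 in shARNT. BMAL1, listed as ARNTL, had 16.7, 15.9 and 16.2 CPM in shControl, 5.41, 5.54 and 4.12 in shBMAL1, and 23.9, 25.1 and 22.5 in shARNT. ARNT was thus also lower in shBMAL1 (log2 fold change -0.65 ± 0.06, edgeR adjusted p = 1.54e-08), and BMAL1 was higher in shARNT (0.55 ± 0.09, edgeR adjusted p = 8.27e-06). Of 8 renal epithelial and ccRCC markers, 6 were at 1 CPM or more in all libraries, and EPCAM stayed under 1 CPM on average in each group. Their summed level in shControl was 7731 to 7789 CPM. It was 5713 to 6188 CPM in the shBMAL1 libraries and 2051 to 2211 in the shARNT libraries, and most of that sum was VIM. Single markers moved in several ways: PAX8 had means of 36, 40.8 and 100.3 CPM in shControl, shBMAL1 and shARNT, CDH16 7.60, 22.3 and 3.01, and the HIF target CA9 76.5, 30.2 and 1.06. The 3 endothelial markers summed to at most 0.323 CPM in any library. Among 4 immune markers CD3E was at 0, and the sum was nearly all CD68, also a lysosomal protein of other cells, with a mean of 1865 CPM in shControl, 1792 in shBMAL1 and 142 in shARNT. Among 4 fibroblast markers COL1A1 made up the sum, with a mean of 237 CPM in shControl, 35.7 in shBMAL1 and 45.4 in shARNT. The part of these marker changes in the values below was not tested. In RNA from a bulk culture, fewer cells of a kind and less RNA per cell cannot be told apart.

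Most translation factors differed from control in shARNT, as did most genes. In shARNT against shControl, 34 factors were called higher and 20 lower at an adjusted p under 0.1, that is 90.0% of 60, where 81.8% of all genes tested were called. In shBMAL1 against shControl, 21 were called higher and 21 lower (70.0%), beside 63.3% of all genes. In shARNT against shBMAL1, the direct comparison of the depletions, 29 were called higher and 19 lower (80.0%), beside 81.2% of all genes. All these shares are near the background of all genes. By direction in shARNT, 56.7% of the factors were called higher, beside 40.5% of all genes, and 33.3% lower, beside 41.3%. In the direct comparison, 48.3% were called higher, beside 40.1% of all genes, and 31.7% lower, beside 41.1%. In shBMAL1, 35% were called in each direction, beside 31.9% of all genes higher and 31.5% lower. The changes were of modest size: the median absolute log2 fold change of the factors was 0.45 for shARNT (all genes 0.66), 0.19 for shBMAL1 (all genes 0.32) and 0.30 when shARNT was set against shBMAL1 (all genes 0.64). The median signed change was 0.21, 0.03 and 0.03, and that of all genes lay between -0.01 and 0.00. With scaling by library size alone, the median of all genes rose by 0.24 for shARNT, 0.05 for shBMAL1 and 0.19 for their direct contrast, and the calls then split into 39 higher and 15 lower, 25 and 19, and 36 and 12. Both depletions were set against the same control libraries, so their calls are not independent of each other.

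**Figure D1:**
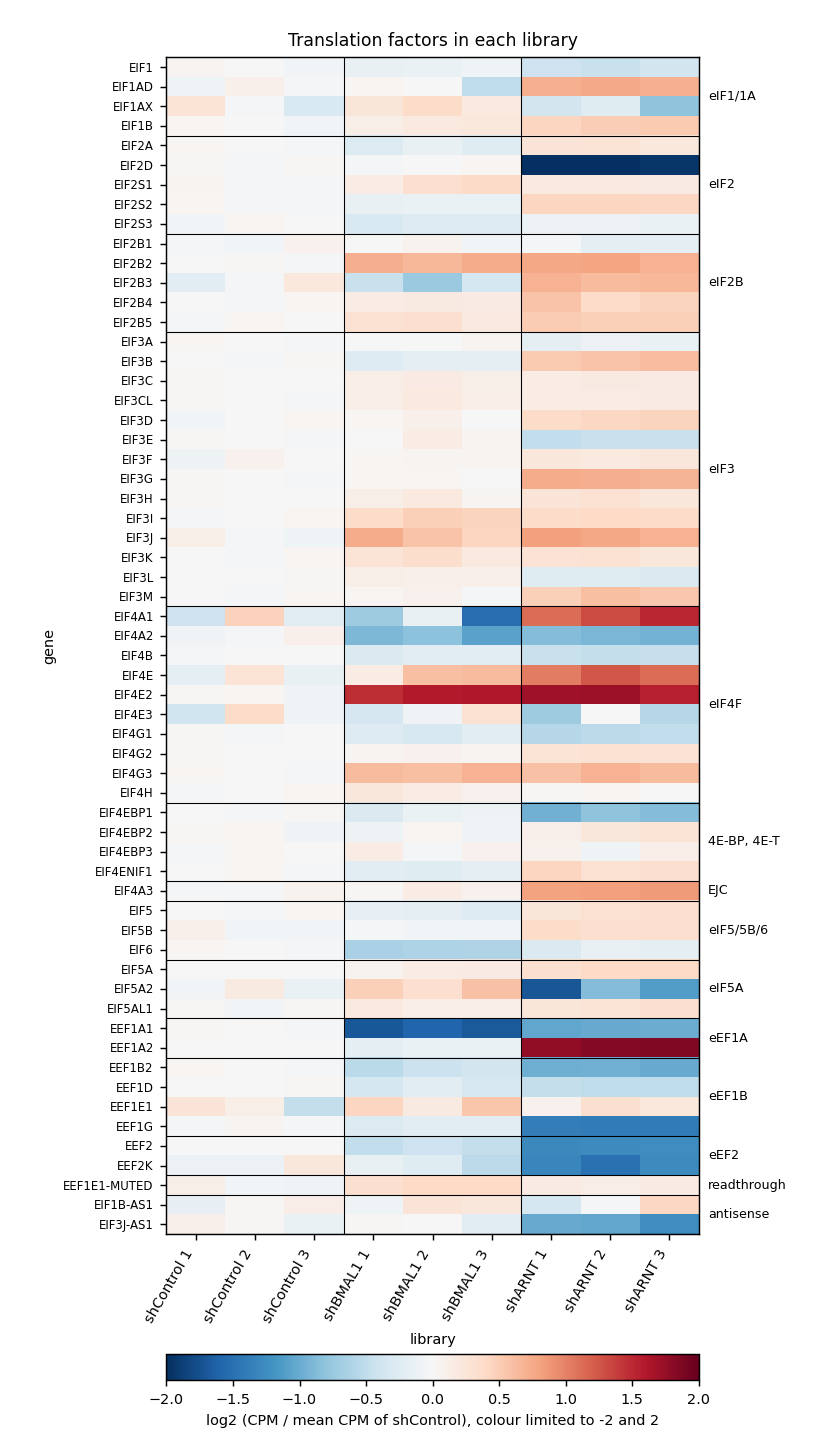
Level of each of the 60 tested factors in each of the 9 libraries, as the log2 ratio of CPM to the mean CPM of shControl (colour), with genes grouped by factor complex. Replicates of a group look alike for most genes, EIF2D is darkest blue in the 3 shARNT libraries, and EIF4E2 is red in all 6 depleted libraries.

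Most eEF genes were called lower in each depletion, while more initiation factors were called higher than lower, by little in shBMAL1. Among 45 initiation factors and their binding proteins, 29 were called higher and 12 lower in shARNT, and 17 and 14 in shBMAL1. Among the 8 eEF names, 1 was called higher and 6 lower in shARNT, and 0 and 7 in shBMAL1. These names include EEF2K, the kinase that inhibits eEF2, and EEF1E1, a scaffold protein of the aminoacyl-tRNA synthetase complex. The other 6 gave 1 higher and 5 lower in shARNT, and 0 and 6 in shBMAL1. Of all genes tested, 40.5% were called higher and 41.3% lower in shARNT, and 31.9% and 31.5% in shBMAL1. The initiation group counts EIF3C and its near-identical copy EIF3CL as separate names. The median log2 fold change of the eEF names was -1.0 in shARNT and -0.30 in shBMAL1, against 0.26 and 0.03 for the initiation group. The difference between the groups was not tested.

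**Figure D2:**
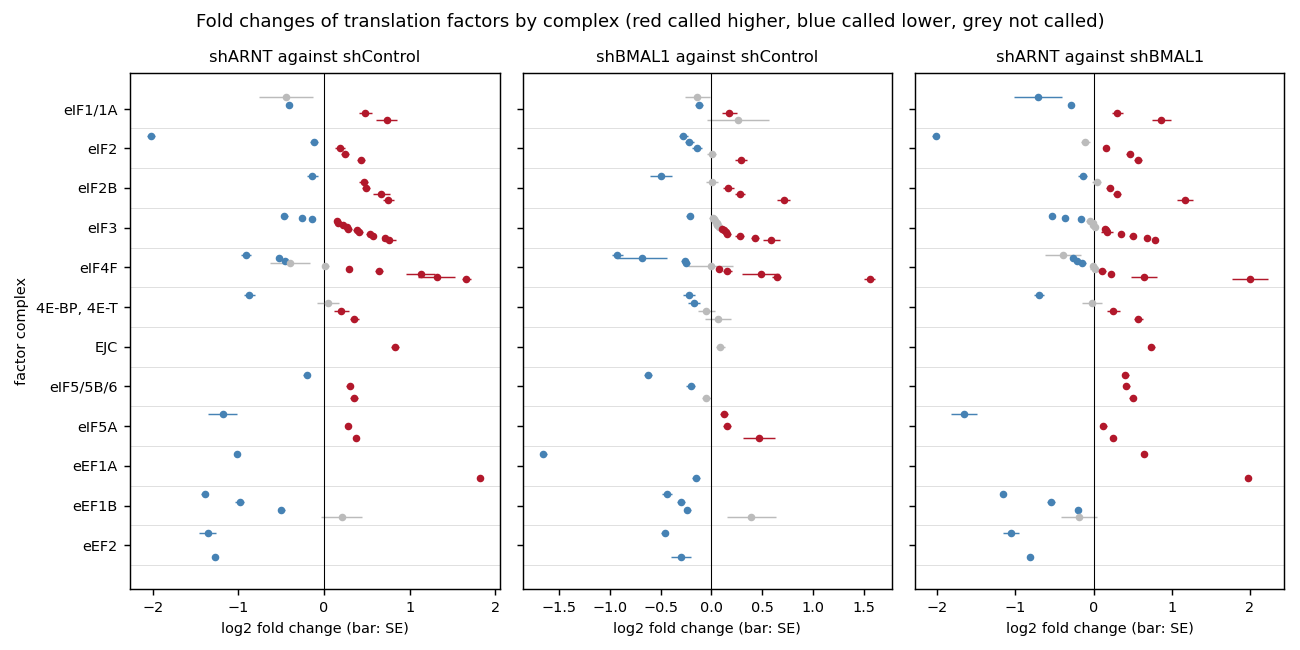
Log2 fold change (points) with its SE (bars) of each tested factor by complex, in the 3 contrasts. Red points were called higher, blue lower and grey not called at an adjusted p under 0.1, and the scale of the x axis differs between panels. The eEF1B and eEF2 rows hold no red point in any panel, while the eIF3 and eIF2B rows are mostly red in shARNT against shControl.

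To show the ends of the mRNAs concerned, the annotated starts of transcription were read from RefSeq promoters (GRCh38.p14), which were found for 48 of the 60 tested factors. Each line gives the last 10 bases before the start and the first 20 after it, on the strand of the gene. Capitals mark the unbroken run of pyrimidines that begins with a C at the first transcribed base. The lines hold all 6 factors with a run of at least 5 pyrimidines that were called lower in shARNT (EEF1A1, EEF2, EIF2D, EIF4A2, EIF4B, EIF2S3). Of the 5 called higher, they hold EIF3D, EIF3M and EIF3F, while EIF2A (0.24) and EIF3K (0.28) are not shown.
EEF1A1 (chr6:73521013-73521042, minus strand): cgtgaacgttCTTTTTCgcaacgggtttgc
EEF2 (chr19:3985444-3985473, minus strand): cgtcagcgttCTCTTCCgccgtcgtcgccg
EIF2D (chr1:206612446-206612475, minus strand): ccagccgggcCCTTTTCgcggccgggcccc
EIF4A2 (chr3:186783567-186783596, plus strand): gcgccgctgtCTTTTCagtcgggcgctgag
EIF4B (chr12:53006446-53006475, plus strand): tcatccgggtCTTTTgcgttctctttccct
EIF2S3 (chrX:24054946-24054975, plus strand): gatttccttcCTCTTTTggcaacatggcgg
EIF3D (chr22:36529147-36529176, minus strand): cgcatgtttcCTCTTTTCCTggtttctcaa
EIF3M (chr11:32583821-32583850, plus strand): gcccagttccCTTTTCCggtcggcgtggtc
EIF3F (chr11:7987327-7987356, plus strand): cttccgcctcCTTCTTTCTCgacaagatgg

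A run of at least 5 pyrimidines from such a C was found in 11 of the 48 promoters (22.9%), and in 4.04% of all 27305 RefSeq promoters. The 27305 include promoters of genes not tested here, so these shares come from unlike sets. The 11 factors were EEF1A1, EEF2, EIF2A, EIF2D, EIF2S3, EIF3D, EIF3F, EIF3K, EIF3M, EIF4A2 and EIF4B. In shARNT, 5 of them were called higher and 6 lower, beside 23 higher, 8 lower and 6 not called among the 37 without the run. In shBMAL1, 1 was called higher, 6 lower and 4 not called, beside 16, 11 and 10 of the 37. The run was read at the annotated start alone, so an mRNA that starts elsewhere could be placed in the wrong group. Tested factors without a matched promoter, EEF1A2 and EEF1D among them, are in neither group. The counts describe these genes, and the difference was not tested.

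Of the elongation factors, the core of eEF1A, eEF1B and eEF2 fell, with EEF1A2 as the exception in shARNT. EEF1A1 (chromosome 6, 74199031 to 74235310, GRCh37) encodes the eEF1A of most tissues. It had 2769, 2736 and 2677 CPM in shControl, 840.4, 903.5 and 847.8 in shBMAL1, and 1327, 1357 and 1374 in shARNT. The groups did not overlap, and shBMAL1 was lowest. The log2 fold change was -1.66 ± 0.04 in shBMAL1 and -1.01 ± 0.03 in shARNT (edgeR adjusted p = 7.99e-18 and 4.30e-16), and shARNT lay 0.65 ± 0.03 above shBMAL1. EEF1A1 has many processed pseudogenes, and how reads with several matches were counted is not given in the sources used here, so its level is uncertain.

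EEF1A2 (chromosome 20, 62119366 to 62130592, GRCh37), the eEF1A of muscle and neurons, moved the other way in shARNT. It had 296.5, 300.0 and 295.6 CPM in shControl, 258.9, 271.1 and 272.3 in shBMAL1, and 1013, 1060 and 1073 in shARNT. All shARNT libraries thus stood far above the other 6. The rise in shARNT was 3.53-fold (log2 fold change 1.82 ± 0.04, edgeR adjusted p = 9.53e-20), the fall in shBMAL1 was small (-0.15 ± 0.04, edgeR adjusted p = 1.13e-03), and the direct difference was 1.97 ± 0.04. EEF1A2 made up 9.83% of the counts of both eEF1A genes in shControl, 23.7% in shBMAL1 and 43.7% in shARNT on average. Between libraries of a group this share ranged from 9.67% to 9.94%, from 23.1% to 24.3% and from 43.3% to 43.9%. The summed level of the pair was 3025 CPM in shControl, 1131 in shBMAL1 and 2401 in shARNT. Per kilobase of the canonical transcript, EEF1A1 was at 777 RPKM in shControl, 246 in shBMAL1 and 385 in shARNT, and EEF1A2 at 168, 151 and 591. On that scale EEF1A2 was above EEF1A1 in shARNT, whereas in CPM EEF1A1 was the higher there (means of 1353 and 1049). The order per length rests on annotated lengths of 3512 and 1773 bases. It also rests on the uncertain level of EEF1A1, as do the shares and the sum of the pair.

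The exchange factor eEF1B consists of EEF1B2, EEF1D and EEF1G, and all these subunits fell in both depletions. EEF1G, the structural subunit, had 431.4, 455.3 and 434.7 CPM in shControl, 364.0, 382.3 and 375.0 in shBMAL1, and 168.1, 166.5 and 167.3 in shARNT. Its 3 groups did not overlap, and its log2 fold change was -1.40 ± 0.04 in shARNT (edgeR adjusted p = 6.48e-18) and -0.24 ± 0.04 in shBMAL1 (edgeR adjusted p = 1.15e-05). EEF1B2, a catalytic subunit, fell by 0.98 in shARNT and by 0.44 in shBMAL1 on the log2 scale. EEF1D, the other catalytic subunit, fell by 0.50 and by 0.30. In the direct comparison all these subunits were called lower in shARNT than in shBMAL1, but with library size alone the difference for EEF1D was -0.0060 and not called (edgeR adjusted p = 0.893). EEF1E1, a scaffold protein of the aminoacyl-tRNA synthetase complex despite its name, had a mean of 1.26 CPM in shControl, 1.66 in shBMAL1 and 1.46 in shARNT and was not called. Its row held 5.88% to 6.14% of the reads of its locus on average by group, and the rest was listed under the readthrough name EEF1E1-MUTED, which was called higher in shARNT (0.15 ± 0.07) and in shBMAL1 (0.38 ± 0.07). The call in shARNT was lost without shControl replicate 2 or shControl replicate 3 (edgeR adjusted p = 0.152 and 0.157), and EEF1E1 itself was called higher in shBMAL1 without shControl replicate 1 (0.0967).

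EEF2 (chromosome 19, 3976054 to 3985461, GRCh37), the translocase, had the highest counted level per annotated length in shControl (1627 RPKM). Next came EEF1A1 (777 RPKM), whose level is uncertain. Its level was 5139, 5124 and 5153 CPM in shControl, 3640, 3869 and 3692 in shBMAL1, and 2095, 2125 and 2166 in shARNT. The libraries formed 3 separate steps, with shBMAL1 between the others. The log2 fold change was -1.27 ± 0.03 in shARNT (edgeR adjusted p = 2.63e-18) and -0.46 ± 0.03 in shBMAL1 (edgeR adjusted p = 1.49e-10). EEF2K, the kinase that inhibits eEF2, fell in the same libraries. It had 34.0, 34.0 and 43.1 CPM in shControl, 33.3, 31.3 and 25.7 in shBMAL1, and 14.9, 13.1 and 15.3 in shARNT. The shARNT libraries were lowest (-1.36 ± 0.10, edgeR adjusted p = 1.35e-10), while shBMAL1 and shControl lay close together (-0.30 ± 0.10, edgeR adjusted p = 0.0115), and without shControl replicate 3 that small fall was no longer called (-0.18, edgeR adjusted p = 0.116). EEF1A1, EEF1A2 and EEF2 together held 44.9% of the counts of all factors in shControl, 33.3% in shBMAL1 and 31.3% in shARNT. These shares include the uncertain level of EEF1A1.

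**Figure D3:**
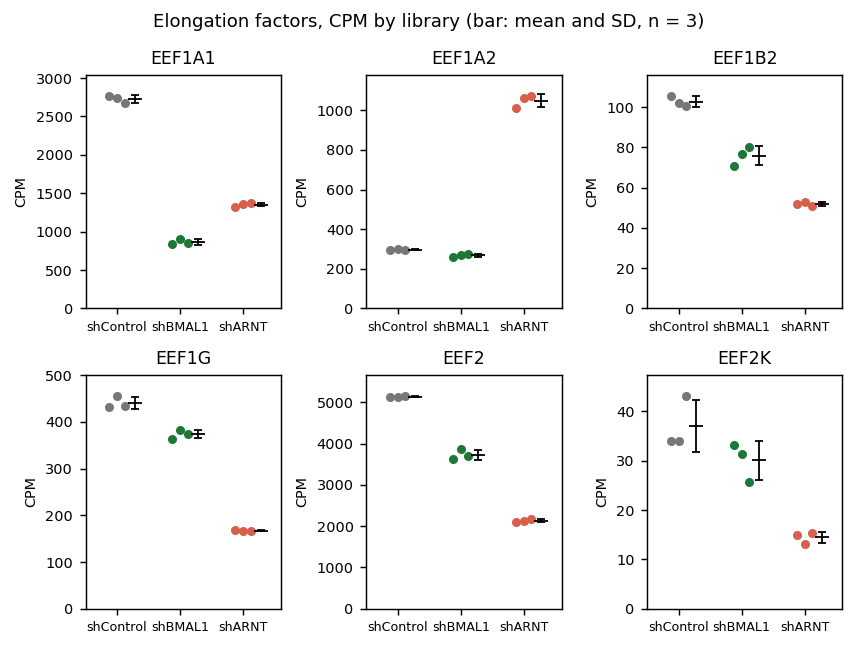
CPM (y axis, from 0) of 6 elongation genes in the single libraries (points) with the mean and SD of each group (bars, n = 3). EEF1A2 is the gene that stands high in shARNT, EEF1A1 is lowest in shBMAL1, and EEF1B2, EEF1G, EEF2 and EEF2K are lowest in shARNT.

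The cap-binding group of eIF4F and its helpers had 10 tested factors. In shARNT, 5 were called higher and 3 lower, beside 40.5% and 41.3% of all genes. In shBMAL1, 5 were called higher and 4 lower, beside 31.9% and 31.5%. The cap-binding protein EIF4E2, a homologue of eIF4E that takes part with HIF2α in translation under hypoxia, rose most in this group. EIF4E2 (chromosome 2, 233415369 to 233448354, GRCh37) had 37.3, 37.7 and 34.8 CPM in shControl, 101.6, 110.2 and 111.4 in shBMAL1, and 118.0, 121.3 and 107.9 in shARNT. Both depletions were far above control and overlapped each other. The rise was 3.16-fold in shARNT (log2 fold change 1.66 ± 0.06, edgeR adjusted p = 3.28e-16) and 2.94-fold in shBMAL1 (1.56 ± 0.06, edgeR adjusted p = 8.90e-15). The direct difference of 0.10 ± 0.05 was called (edgeR adjusted p = 0.078), but not without shBMAL1 replicate 1 (0.352), shARNT replicate 1 (0.175) or shARNT replicate 2 (0.295).

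EIF4E itself had a low counted level, with 1.95, 2.67 and 2.00 CPM in shControl, 2.46, 3.37 and 3.44 in shBMAL1, and 4.49, 5.21 and 4.79 in shARNT. How reads with several matches were counted is not given in the sources used here, so this level is uncertain. The shARNT libraries were highest (log2 fold change 1.13 ± 0.17, edgeR adjusted p = 5.60e-06), and shBMAL1 and shControl overlapped (0.48 ± 0.18, edgeR adjusted p = 0.0275, and 0.101 without shBMAL1 replicate 3). EIF4E3 was not called in any of the 3 contrasts, with means of 2.85, 2.84 and 2.16 CPM in shControl, shBMAL1 and shARNT, but was called lower in shARNT against control without shControl replicate 1 or shARNT replicate 2 (edgeR adjusted p = 0.038 and 0.0259).

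The scaffolds of the complex split. EIF4G1, the main scaffold, had 1390, 1344 and 1375 CPM in shControl, 1151, 1102 and 1175 in shBMAL1, and 920.4, 952.1 and 974.9 in shARNT. It fell in both depletions (-0.53 ± 0.03 in shARNT and -0.26 ± 0.03 in shBMAL1, edgeR adjusted p = 1.93e-11 and 2.18e-06). EIF4G3, its paralogue, rose in both. The level of EIF4G3 was 61.1, 59.9 and 57.7 CPM in shControl, 92.0, 90.1 and 96.9 in shBMAL1, and 89.7, 96.9 and 91.9 in shARNT, with a log2 fold change of 0.64 ± 0.05 in each depletion (edgeR adjusted p = 1.63e-10 in shARNT and 6.66e-10 in shBMAL1). EIF4G2, which lacks the eIF4E-binding part of the scaffold, was called higher by 0.29 ± 0.03 in shARNT and 0.07 ± 0.03 in shBMAL1, the latter not without shControl replicate 2, shControl replicate 3 or shBMAL1 replicate 2 (edgeR adjusted p = 0.149, 0.135 and 0.154).

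Among the helicases, EIF4A2 (chromosome 3, 186500994 to 186507686, GRCh37) had 265.8, 273.3 and 298.3 CPM in shControl, 149.4, 158.4 and 132.3 in shBMAL1, and 152.8, 147.5 and 144.3 in shARNT. Every depleted library was below every control library, and the depletions overlapped. The log2 fold change was -0.91 ± 0.06 in shARNT and -0.93 ± 0.06 in shBMAL1 (edgeR adjusted p = 5.12e-12 and 2.15e-11), and the direct difference of 0.01 ± 0.06 was not called, though with library size alone it was 0.20 and called. EIF4A1, the major helicase, cannot be read from its own row: 0.534% to 1.56% of the reads of its locus were listed under EIF4A1 on average and the rest under the readthrough name SENP3-EIF4A1. That row had 4.33, 7.96 and 5.00 CPM in shControl, 3.51, 5.22 and 2.00 in shBMAL1, and 12.5, 14.2 and 16.3 in shARNT. The shARNT values stood above the others (1.32 ± 0.21, edgeR adjusted p = 1.31e-05), and shBMAL1 overlapped shControl (-0.68 ± 0.24, edgeR adjusted p = 0.0219, not called by DESeq2 at 0.14, nor in edgeR without shControl replicate 2 at 0.213 or shBMAL1 replicate 3 at 0.136). With both rows summed, the locus had a mean of 730.6 CPM in shControl, 667.8 in shBMAL1 and 916.0 in shARNT, and the log2 fold changes shrank to 0.33 in shARNT and -0.13 in shBMAL1. The readthrough name also covers the gene SENP3, so this sum may hold reads of SENP3. SENP3's own row had means of 3.60, 4.75 and 9.90 CPM in shControl, shBMAL1 and shARNT. EIF4B, which stimulates the helicase, fell by 0.46 in shARNT and by 0.25 in shBMAL1 on the log2 scale. EIF4H, a factor of the same function, was called higher in shBMAL1 (0.16 ± 0.04) and not called in shARNT (0.01 ± 0.04), where library size alone gave 0.25 and a call.

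EIF4EBP1, the repressor that holds eIF4E when mTOR is inactive, had 39.8, 39.5 and 40.7 CPM in shControl, 32.7, 36.4 and 37.4 in shBMAL1, and 20.6, 22.9 and 21.8 in shARNT. The groups did not overlap, and shARNT was lowest (-0.88 ± 0.06, edgeR adjusted p = 9.45e-11). The small fall in shBMAL1 (-0.17 ± 0.06, edgeR adjusted p = 0.0238) was not called without shBMAL1 replicate 1 (0.145). The counts of EIF4EBP1 were 18.5 times those of EIF4E in shControl, 11.7 times in shBMAL1 and 4.52 times in shARNT on average. This ratio rests on the low counts of EIF4E, whose level is uncertain. EIF4EBP2 was called higher in shARNT (0.20 ± 0.08), not without shControl replicate 3 or shARNT replicate 3 (edgeR adjusted p = 0.109 and 0.115), and was not called in shBMAL1. EIF4ENIF1, which carries eIF4E into the nucleus, was called higher in shARNT (0.35 ± 0.05) and lower in shBMAL1 (-0.22 ± 0.06). EIF4EBP3 was not called in any contrast. The readthrough name ANKHD1-EIF4EBP3, which also covers the neighbouring gene ANKHD1, had a mean of 85.9 CPM in shControl, beside 4.6 for EIF4EBP3. With both rows summed, the locus was called in each contrast, with 0.50 in shARNT (edgeR adjusted p = 6.47e-09), -0.15 in shBMAL1 (0.0112) and 0.65 in the direct comparison (1.07e-10). The row of ANKHD1 alone changed by 0.50, -0.10 and 0.60 in these contrasts, so the sum cannot be read as a change of EIF4EBP3.

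Of the eIF2 group, EIF2D fell in shARNT, and the subunits of eIF2 itself changed by at most 0.43 on the log2 scale in either depletion. EIF2D (chromosome 1, 206744620 to 206785818, GRCh37), which can place tRNA on the ribosome without GTP and acts in the recycling of small subunits, had 126.2, 120.8 and 125.5 CPM in shControl, 121.8, 124.1 and 127.4 in shBMAL1, and 30.3, 29.2 and 32.3 in shARNT. The shBMAL1 libraries lay among the control libraries, and the shARNT libraries at 24.7% of the control mean. The log2 fold change was -2.02 ± 0.05 in shARNT (edgeR adjusted p = 1.46e-18) and 0.00 ± 0.04 in shBMAL1 (edgeR adjusted p = 0.952), and the direct difference was -2.02 ± 0.05 (edgeR adjusted p = 1.43e-18). EIF2S1, the α subunit whose phosphorylation stops initiation under stress, had 41.9, 39.5 and 39.0 CPM in shControl, 44.7, 50.5 and 52.4 in shBMAL1, and 45.7, 46.2 and 45.1 in shARNT. Both depletions lay above control (0.19 ± 0.06 in shARNT and 0.29 ± 0.06 in shBMAL1, edgeR adjusted p = 7.83e-03 and 3.13e-04). EIF2S2, the β subunit, was called higher in shARNT (0.43 ± 0.05) and lower in shBMAL1 (-0.14 ± 0.05), the latter not with library size alone (-0.09, edgeR adjusted p = 0.111). EIF2S3, the γ subunit, was called lower in both (-0.12 ± 0.04 and -0.28 ± 0.04), and with library size alone its change in shARNT turned to 0.12. EIF2A, an initiation factor separate from eIF2, was called higher in shARNT (0.24 ± 0.04) and lower in shBMAL1 (-0.22 ± 0.04).

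In the exchange factor eIF2B, 4 of 5 subunits were called higher and 1 lower in shARNT, beside 40.5% and 41.3% of all genes. In shBMAL1, 3 were called higher and 1 lower, beside 31.9% and 31.5%. The β subunit EIF2B2 had 16.6, 16.7 and 16.1 CPM in shControl, 27.3, 26.0 and 27.6 in shBMAL1, and 28.1, 28.5 and 26.5 in shARNT. It rose in both depletions (0.75 ± 0.06 in shARNT and 0.71 ± 0.06 in shBMAL1, edgeR adjusted p = 1.22e-09 and 1.09e-08), and the direct difference of 0.04 ± 0.06 was not called, though with library size alone it was 0.23 and called. The γ subunit EIF2B3 (chromosome 1, 45316194 to 45452394, GRCh37) had 13.3, 15.4 and 18.1 CPM in shControl, 11.5, 9.32 and 12.3 in shBMAL1, and 25.4, 24.3 and 24.7 in shARNT. It was the subunit whose libraries lay above control in shARNT (0.67 ± 0.10, edgeR adjusted p = 4.48e-06) and below it in shBMAL1 (-0.50 ± 0.11, edgeR adjusted p = 4.85e-04), with a direct difference of 1.17 ± 0.10. EIF2B4 and EIF2B5, the δ subunit and the catalytic ε subunit, were called higher in shARNT by 0.46 and 0.49, and in shBMAL1 by 0.17 and 0.28. EIF2B1, the α subunit, was at 50.6, 50.7 and 46.0 CPM on average in shControl, shBMAL1 and shARNT, and its call in shARNT (-0.14 ± 0.06) was lost without shControl replicate 3, shARNT replicate 2 or shARNT replicate 3 (edgeR adjusted p = 0.196, 0.175 and 0.136), and with library size alone (0.10, edgeR adjusted p = 0.132).

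eIF3, the scaffold of the small subunit, had 14 tested names. In shARNT, 11 were called higher and 3 lower, beside 40.5% and 41.3% of all genes. In shBMAL1, 7 were called higher and 1 lower, beside 31.9% and 31.5%. The names include EIF3C and its near-identical copy EIF3CL, which split their reads almost evenly (EIF3CL 51.8% to 52.3% on average by group). With their rows summed, the pair was called higher by 0.16 in shARNT and 0.15 in shBMAL1. In shARNT the largest rises were found for the loosely bound subunit EIF3J (0.76 ± 0.08) and the RNA-binding subunit EIF3G (0.71 ± 0.04). EIF3J had 16.0, 14.5 and 13.9 CPM in shControl, 24.9, 21.9 and 20 in shBMAL1, and 26.0, 25.3 and 23.9 in shARNT, so that both depletions stood above control (0.59 ± 0.08 in shBMAL1, edgeR adjusted p = 5.24e-06). EIF3G had 170.0, 169.6 and 163.9 CPM in shControl, 172.7, 172.7 and 166.8 in shBMAL1, and 281.3, 276.9 and 267.5 in shARNT, with no call in shBMAL1. The core subunit EIF3B was called higher in shARNT (0.57 ± 0.04) and lower in shBMAL1 (-0.21 ± 0.04), with means of 438.0 CPM in shControl, 377.5 in shBMAL1 and 650.4 in shARNT.

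EIF3A, the largest eIF3 subunit, had 669.1, 647.8 and 636.6 CPM in shControl, 652.4, 644.3 and 678.7 in shBMAL1, and 574.9, 597.8 and 592.7 in shARNT. The fall in shARNT was small (-0.15 ± 0.04, edgeR adjusted p = 8.52e-04), and with library size alone the change was 0.09 and called higher. EIF3E and EIF3L were the other subunits called lower in shARNT, by -0.46 ± 0.04 and -0.26 ± 0.04, and both were also lower than in shBMAL1 in the direct comparison (-0.53 ± 0.04 and -0.37 ± 0.04). With library size alone the call of EIF3L in shARNT was lost (-0.02, edgeR adjusted p = 0.569). EIF3D, EIF3F, EIF3H, EIF3I, EIF3K and EIF3M were called higher in shARNT by 0.22 to 0.53. In shBMAL1, EIF3H, EIF3I and EIF3K were called higher, by 0.12 to 0.43, and EIF3D, EIF3F and EIF3M were not called. Without shBMAL1 replicate 2 the call of EIF3H was lost (edgeR adjusted p = 0.105), and without shControl replicate 2 EIF3F was called (0.085). With library size alone both EIF3D and EIF3F were called higher in shBMAL1 by 0.10.

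**Figure D4:**
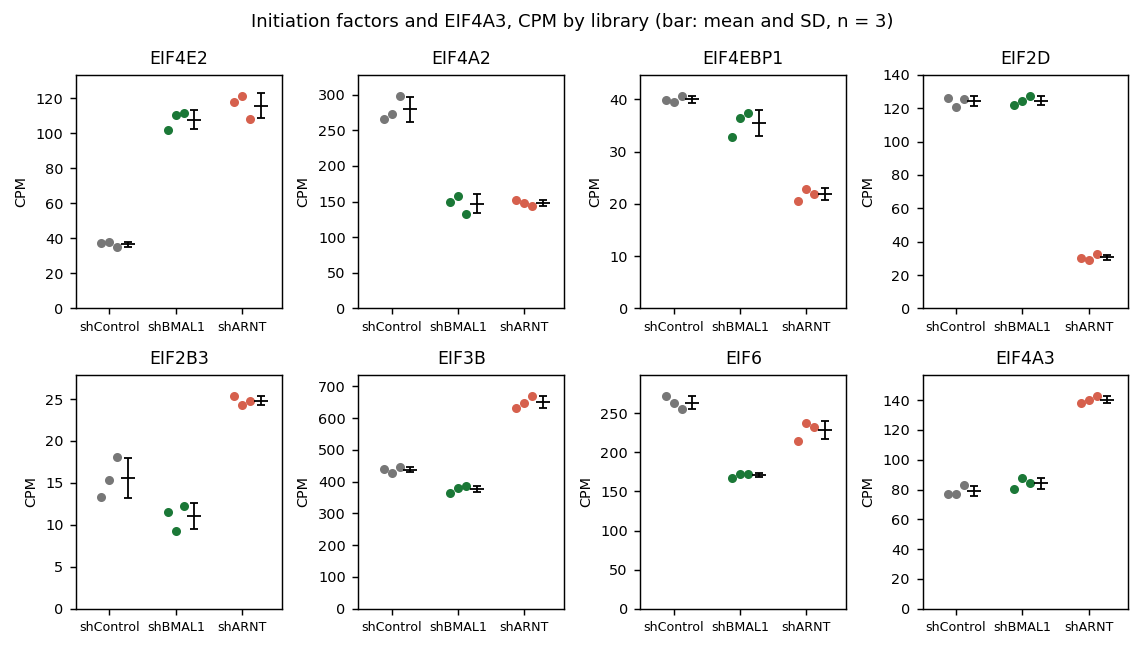
CPM (y axis, from 0) of 7 initiation genes and the exon junction helicase EIF4A3 in the single libraries (points) with the mean and SD of each group (bars, n = 3). EIF4E2 is high and EIF4A2 low in both depletions, EIF2D is low in shARNT, and EIF2B3 and EIF3B lie above control in shARNT and below it in shBMAL1.

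Of the factors for scanning and subunit joining, EIF6 and EIF1 fell. EIF6, which keeps free large subunits from joining, had 271.8, 262.5 and 255.3 CPM in shControl, 167.7, 172.1 and 172.6 in shBMAL1, and 215.0, 238.0 and 232.3 in shARNT. It was lowest in shBMAL1 (-0.62 ± 0.04, edgeR adjusted p = 1.46e-10) and between the others in shARNT (-0.20 ± 0.04, edgeR adjusted p = 1.79e-04), the latter 0.03 and not called with library size alone. EIF5 and EIF5B were called higher in shARNT, by 0.30 ± 0.04 and 0.35 ± 0.04. In shBMAL1, EIF5 was called lower (-0.20 ± 0.04) and EIF5B was not called. EIF1, which guards start codon choice, fell by 0.41 in shARNT and by 0.12 in shBMAL1 on the log2 scale, the latter not called with library size alone (-0.07, edgeR adjusted p = 0.115). EIF1AD, a protein with an eIF1A-like domain, had 7.27, 8.32 and 7.60 CPM in shControl, 7.93, 7.72 and 5.41 in shBMAL1, and 12.7, 13.1 and 12.7 in shARNT. Its shARNT libraries were highest (0.73 ± 0.12, edgeR adjusted p = 1.15e-05), and it was not called in shBMAL1. EIF1B, a paralogue of EIF1, was called higher in shARNT (0.48 ± 0.07) and, at an edgeR adjusted p of 0.0544, in shBMAL1 (0.18 ± 0.08). That call was lost without shControl replicate 3, shBMAL1 replicate 2 or shBMAL1 replicate 3 (0.15, 0.118 and 0.128) and under DESeq2 (0.122). EIF1AX was under 1 CPM in all libraries and was not called against control. In the direct comparison it was called lower in shARNT than in shBMAL1 (-0.71 ± 0.31, edgeR adjusted p = 0.0437). This was lost with library size alone (0.133), under DESeq2 (0.117), and without shARNT replicate 3 (0.149) or shBMAL1 replicate 2 (0.104).

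eIF5A relieves ribosomes that stall in elongation, and its genes differed. EIF5A had 205.2, 206.1 and 208.7 CPM in shControl, 218.0, 228.6 and 230.5 in shBMAL1, and 257.6, 272.0 and 272.4 in shARNT. It stepped up from control to shBMAL1 (0.13 ± 0.04, edgeR adjusted p = 7.78e-03) and to shARNT (0.37 ± 0.04, edgeR adjusted p = 2.19e-08). EIF5AL1, a copy of EIF5A, held 40.0% to 42.0% of the reads of the pair on average by group, and the summed rows gave 0.14 in shBMAL1 and 0.33 in shARNT. The paralogue EIF5A2 had 5.23, 6.14 and 4.96 CPM in shControl, 7.58, 6.85 and 8.17 in shBMAL1, and 1.67, 2.98 and 2.52 in shARNT. These low levels lay in 3 separate ranges, lowest in shARNT (-1.19 ± 0.17, edgeR adjusted p = 2.67e-06) and highest in shBMAL1 (0.47 ± 0.15, edgeR adjusted p = 0.0139).

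EIF4A3, a helicase of the exon junction complex and not of initiation, had 77.0, 77.3 and 82.9 CPM in shControl, 80.4, 87.7 and 84.2 in shBMAL1, and 138.1, 140.0 and 142.7 in shARNT. It was raised in the shARNT libraries (0.83 ± 0.05, edgeR adjusted p = 1.21e-12) and not called in shBMAL1 (0.09 ± 0.05, edgeR adjusted p = 0.11), where it was called higher without shControl replicate 3 (0.0472) or shBMAL1 replicate 1 (0.0478) and with library size alone (0.0161). The antisense name EIF3J-AS1 was called lower in shARNT (-1.09 ± 0.12) and EIF1B-AS1 was not called in any contrast. Whether strand was used in counting is not given in the sources used here, so reads of these RNAs and of their partner genes may not be separate.

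Sequence upstream of 4 factors with large or opposite changes is shown because BMAL1 with CLOCK binds the E-box CACGTG and ARNT with HIF2α binds ACGTG or GCGTG. Each line holds the 250 bases before the annotated start in the RefSeq promoter (GRCh38.p14), on the strand of the gene. Capitals mark every match to these letters on either strand. Each CACGTG also contains ACGTG on both strands, so the motifs overlap.
EIF2D (chr1:206612466-206612715, minus strand): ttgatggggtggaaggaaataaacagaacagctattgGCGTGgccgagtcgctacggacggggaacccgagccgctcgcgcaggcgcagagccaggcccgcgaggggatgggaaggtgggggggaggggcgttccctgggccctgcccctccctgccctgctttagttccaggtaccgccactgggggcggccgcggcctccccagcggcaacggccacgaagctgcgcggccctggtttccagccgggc
EIF4E2 (chr2:232550439-232550688, plus strand): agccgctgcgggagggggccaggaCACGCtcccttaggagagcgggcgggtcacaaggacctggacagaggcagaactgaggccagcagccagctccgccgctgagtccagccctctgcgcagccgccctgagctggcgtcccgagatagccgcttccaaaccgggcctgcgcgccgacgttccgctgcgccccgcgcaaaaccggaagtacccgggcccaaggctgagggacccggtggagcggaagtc
EIF5A2 (chr3:170908638-170908887, minus strand): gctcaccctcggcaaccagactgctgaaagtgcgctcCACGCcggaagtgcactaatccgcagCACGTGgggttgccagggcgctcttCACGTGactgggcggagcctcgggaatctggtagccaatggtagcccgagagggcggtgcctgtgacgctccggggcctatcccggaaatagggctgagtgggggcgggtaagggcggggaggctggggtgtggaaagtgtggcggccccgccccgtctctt
EIF2B3 (chr1:44986596-44986845, minus strand): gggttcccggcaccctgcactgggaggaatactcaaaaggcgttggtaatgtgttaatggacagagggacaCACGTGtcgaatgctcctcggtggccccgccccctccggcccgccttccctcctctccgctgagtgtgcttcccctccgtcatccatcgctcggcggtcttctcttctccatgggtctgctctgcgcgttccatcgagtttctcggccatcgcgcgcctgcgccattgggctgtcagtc

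Matches were counted from 250 bases before the annotated start to 50 bases after it, so some lie outside the lines above. The E-box CACGTG was found in 13 of 48 matched promoters (27.1%), beside 7.43% of all 27305. The windows of EIF1B and EIF1B-AS1, both among the 13, overlap. ACGTG or GCGTG was found in 36 (75.0%), beside 48.4% of all. The 27305 include promoters of genes not tested here, so the shares of all are not those of tested genes. Of the 13 with the E-box, 6 were called higher, 4 lower and 3 not in shARNT, and 5, 4 and 4 in shBMAL1. The 35 without it gave 22, 10 and 3 in shARNT, and 12, 13 and 10 in shBMAL1. Of the 36 with ACGTG or GCGTG, 20 were called higher, 10 lower and 6 not in shARNT, and 12 each in shBMAL1. The 12 without these letters gave 8, 4 and 0 in shARNT, and 5, 5 and 2 in shBMAL1. The differences were not tested. A match of letters is not a bound site, and no binding was measured in these libraries.

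Genes that work with the factors were taken from a fixed list of 41, all of them tested. In shARNT, 26 were called higher and 11 lower, in shBMAL1 20 and 10, and in the direct comparison 22 and 14. Of all genes tested, 40.5% were called higher and 41.3% lower in shARNT, 31.9% and 31.5% in shBMAL1, and 40.1% and 41.1% in the direct comparison, and calls of single groups below stand against that background. In release and recycling, 7 of 8 were called higher in shARNT and none lower, led by the release factors GSPT2 (1.12) and GSPT1 (1.09), and 4 were called higher in shBMAL1. DENR and MCTS1, which together act in recycling like EIF2D, were called higher in shARNT by 0.45 and 0.16, while in shBMAL1 MCTS1 was called higher by 0.58 and DENR was not called. Of the poly(A)-binding proteins, PABPC1, PABPC3 and PABPC4 were called lower in both depletions, in shARNT by -0.80, -0.83 and -1.41 and in shBMAL1 by -0.37, -0.35 and -0.92. PABPC1 and PABPC3 are close copies whose reads may be shared. PAIP2, which binds and inhibits PABPC1, was called higher in shARNT (0.98) and in shBMAL1 (0.24).

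Among kinases and phosphatases of initiation factors, 6 of 10 were called higher and 3 lower in shARNT, and 5 and 4 in shBMAL1. RPS6KB1, the S6 kinase, was called higher by 1.82 in shARNT and 0.35 in shBMAL1. The eIF2α kinase EIF2AK3, a sensor of stress in the endoplasmic reticulum, was called lower in shARNT (-1.0) and not called in shBMAL1. PPP1R15A and PPP1R15B, which direct a phosphatase to eIF2α, were called higher in shARNT by 0.96 and 0.72, and in shBMAL1 PPP1R15A was called lower (-0.18) and PPP1R15B higher (0.86). In cap-dependent control, 5 of 8 were called higher and 3 lower in shARNT. MTOR was called higher by 1.12 in shARNT and 0.32 in shBMAL1. LARP1, which binds oligopyrimidine mRNAs, was called higher in shARNT (0.90) but lower in shBMAL1 (-0.17). RPTOR, the mTORC1 scaffold, was called lower in shARNT (-0.51) but higher in shBMAL1 (0.10). Of 9 genes for the modifications of eIF5A (hypusine) and eEF2 (diphthamide), 6 were called higher and 2 lower in shARNT, and 4 and 1 in shBMAL1. DHPS, which starts hypusine synthesis, was called lower in shARNT (-0.67), and DPH6 and DPH2, of diphthamide synthesis, were called higher (1.91 and 1.41).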

How the data were processed

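Strand-specific mRNA libraries were read in pairs on the BGISEQ-500 platform. Per the study's methods, the authors aligned reads to GRCh37 with SeqMan NGen and exported gene totals with ArrayStar, whereas the submitters' processing notes list STAR, DESeq2 and hg38. Which applies to the table could not be settled. The annotation release, the use of strand and the counting of mates or of reads with several matches are not given in the sources used here. The deposited values are expected counts per gene, not normalized, with 0.05 written for 0. They were set to 0 and rounded. Of 27716 rows, 28 carried a date as their name and were kept apart, and rows of 43 repeated names were summed. Gene positions (GRCh37) and canonical lengths came from GENCODE release 44 lifted to GRCh37, and promoters from RefSeq (GRCh38.p14).

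All 9 libraries entered 1 fit with edgeR 4.0.16 in R 4.3.3 (TMM, filterByExpr, glmQLFit and glmQLFTest, group as the only factor), with Benjamini-Hochberg adjusted p under 0.1 over all genes tested, after the step was tested on simulated data. CPM are counts scaled to the TMM-adjusted library total, and RPKM these per kilobase. Alternatives were DESeq2 1.42.0, other scaling, filters and thresholds, halved counts, the 6 libraries compared, a replicate block and leaving out each library, and, chosen after seeing the data, summing or leaving out rows that share reads. Values in every library are given for a core set (EIF4E, EIF4G1, EIF4A1, EIF4A2, EIF4EBP1, EIF2S1, EIF3A, EIF5A, EEF1A1, EEF1A2, EEF2, EEF2K), for the targeted genes and, in each contrast, for the 4 largest rises and 4 largest falls among called members whose groups did not overlap and whose mean log2 CPM was 2 or more. EIF3G is given so as well, chosen after its values were seen. Members and lists were chosen with earlier results of these data known.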

Additional observations from a re-analysis of the deposited data

Results flagged for a closer look

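For 10 factors the depletions were called in opposite directions against control, and the direct comparison of shARNT with shBMAL1 was itself called. These are 16.7% of the 60 factors tested, and 19.4% of all 15551 genes tested did the same, so the count is no more than the background. The log2 difference, shARNT minus shBMAL1, was 1.97 for EEF1A2, 1.17 for EIF2B3, 0.78 for EIF3B, 0.57 for EIF4ENIF1, 0.57 for EIF2S2, 0.50 for EIF5 and 0.46 for EIF2A. It was -1.65 for EIF5A2 and -0.37 for EIF3L. With library size alone, EIF3L was no longer called in shARNT (-0.02, edgeR adjusted p = 0.569), nor EIF2S2 in shBMAL1 (-0.09, edgeR adjusted p = 0.111). For the EIF4A1 row it was 2.00, and 0.46 with the readthrough row of the locus added, which also covers SENP3. The call of the EIF4A1 row in shBMAL1 was lost under DESeq2.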

How the results depend on the processing

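The counts of factors called higher or lower stayed within 1.5 times the reported ones in all contrasts under DESeq2, no filter, the filter of 50 counts, halved counts, the threshold of 0.01, the fit of the 6 libraries compared and summed rows. A minimum fold change of 1.2 lowered the counts to 22 higher in shARNT, 7 higher and 7 lower in shBMAL1, and 17 higher and 11 lower in the direct comparison. Library size alone gave 12 lower in the direct comparison and medians of 0.44, 0.076 and 0.22 in shARNT, shBMAL1 and the direct comparison. It reversed 2 calls in shARNT, of EIF2S3 (0.12) and EIF3A (0.091). The median in shBMAL1 was 0.012 with the filter of 50 counts, 0.0040 with summed rows and 0.0029 without rows that share reads. The direct median was 0.058, 0.10 and 0.070 in these settings and 0.048 under DESeq2. Leaving out 1 library gave medians of 0.17 to 0.23 in shARNT, 0.021 to 0.050 in shBMAL1 and 0.032 to 0.055 in the direct comparison, and counts of 32 to 34 higher and 19 to 21 lower, 18 to 23 and 20 to 21, and 27 to 29 and 17 to 22. The cause of these shifts was not tested. Replicate numbers did not pair the samples (correlations of same-numbered deviations -0.219 to 0.297), and a fit with the replicate block gave 34 and 21, 22 and 21, and 29 and 20 calls. It added calls of EIF4A3 in shBMAL1 (0.09) and of EIF4E3 in shARNT (-0.40) and in the direct comparison (-0.40). ARNT in shARNT ranged from -2.45 to -2.39 and ARNTL in shBMAL1 from -1.77 to -1.57 over the fits without 1 library. The largest SEs were those of EIF1AX, EIF1B-AS1, EEF1E1, EIF4E3 and the EIF4A1 row. The EIF4A1 row had a higher level than EIF4E and EIF4EBP3, whose SEs were smaller.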
